A study of Homo sapiens with 3 samples.

Results

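The transcripts of the human mitochondrial genome were examined in H660 cells treated with the HSP70 inhibitor JG231. They are the 37 rows of the gene table whose symbol begins with MT-, out of 58735 rows, and comprise 13 mRNAs, 2 rRNAs and 22 tRNAs. H660 (NCI-H660) is an established neuroendocrine prostate cancer line, here the parental line, although the submitters' cell type label reads prostatic adenocarcinoma. JG231 is an allosteric inhibitor of HSP70, the chaperone that binds unfolded proteins. Cells received DMSO vehicle, 2.5 µM JG231 or 5 µM JG231 for 24 h, and 1 stranded mRNA library was sequenced from each condition, so that no value below has a replicate and none was tested. Both doses are compared with the same DMSO library. The 37 genes were chosen by their symbols with their levels and changes in these 3 libraries already known, and every difference is therefore a description.

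The mitochondrial genome is a small circle of DNA without introns, and each of its strands is read from promoters in a control region as a long precursor RNA. tRNAs lie between most of the other genes, and cutting them out releases the mRNAs and rRNAs, an arrangement known as tRNA punctuation. The mRNAs encode core subunits of respiratory complexes I, III, IV and V, which work only when joined to subunits imported from the cytosol. Most mitochondrial mRNAs carry a poly(A) tail that in several cases completes the stop codon, MT-ND6 mRNA is known as the exception without a long tail, and the mitochondrial rRNAs carry only short A stretches. A precursor read along the heavy strand gives the 2 rRNAs, 12 mRNAs and 14 tRNAs, and the light-strand precursor gives MT-ND6 and 8 tRNAs (MT-TQ, MT-TA, MT-TN, MT-TC, MT-TY, MT-TS1, MT-TE and MT-TP).

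The genes tile the chromosome so closely that 1 sequencing fragment can span neighbours. In hg38 with GENCODE release 44, chromosome M has 16569 bases, and its longest stretch without a gene, in the control region, has 1122. The junctions below are shown because the genes on either side of them changed by different amounts. All are given 5′ to 3′ on the plus strand, which has the sense of the heavy-strand transcripts. The first holds MT-TL1 in capitals between the last bases of MT-RNR2 and the first of MT-ND1 (chrM:3200-3336). The second holds the end of MT-ND5 in capitals, abutting the end of the oppositely read MT-ND6 with 0 bases between them (chrM:14109-14188). The last pair marks in capitals the 46 bases shared by MT-ATP8 and MT-ATP6 (chrM:8507-8592) and the 7 bases shared by MT-ND4L and MT-ND4 (chrM:10740-10786).
MT-RNR2 end, MT-TL1, MT-ND1 start: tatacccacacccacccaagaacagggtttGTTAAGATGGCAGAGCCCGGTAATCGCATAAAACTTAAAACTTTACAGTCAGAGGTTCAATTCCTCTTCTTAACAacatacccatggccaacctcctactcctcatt
MT-ND5 end and MT-ND6 end: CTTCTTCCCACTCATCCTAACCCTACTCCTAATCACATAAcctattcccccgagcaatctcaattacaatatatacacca
MT-ATP8 and MT-ATP6 overlap: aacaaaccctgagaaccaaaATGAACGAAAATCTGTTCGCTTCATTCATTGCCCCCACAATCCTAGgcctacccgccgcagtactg
MT-ND4L and MT-ND4 overlap: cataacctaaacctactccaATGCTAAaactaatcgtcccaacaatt

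Values are FPKM, in which the fragments of a gene are divided by its length and by the size of the library. A change is log2((FPKM + 0.1)/(FPKM in DMSO + 0.1)), given for genes with FPKM over 1 in either library, and a gene counts as lower or higher when it moved by more than 0.25 on that scale. FPKM times gene length fell on whole multiples of 1 fragment, which gives about 16100000 fragments in DMSO, 20400000 at 2.5 µM and 24100000 at 5 µM. The neuroendocrine markers CHGA, SYP, ENO2, NCAM1 and INSM1 were present in every library, with CHGA, a granin of secretory granules, at 46.0 FPKM in DMSO, 15.0 at 2.5 µM and 12.7 at 5 µM. The luminal prostate marker KLK3 stood at 0.134, 0.0317 and 0 FPKM and TMPRSS2 at 0.315, 0.273 and 0.116 FPKM. A mean FPKM of at least 1 was reached by 0 of 3 leukocyte markers, 0 of 3 fibroblast markers and 0 of 2 endothelial markers. In bulk RNA, fewer mitochondrial genomes, less RNA from each and more RNA from the nucleus cannot be told apart.

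Mitochondrial mRNAs were lower and mitochondrial rRNAs higher in both JG231 libraries. The 13 mRNAs had a median log2 change of −1.57 at 2.5 µM and −1.12 at 5 µM, and the rRNAs were 2.34-fold to 5.66-fold higher. The light-strand mRNA MT-ND6 was the lowest against vehicle of all 13, at 14.7-fold lower and 12.4-fold lower. All 13 mRNAs and both rRNAs were lower at 2.5 µM than at 5 µM.

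The mitochondrial share of the library was 13.1% of fragments in DMSO, 8.86% at 2.5 µM and 11.9% at 5 µM. The mRNAs took 10.9%, 3.36% and 4.65% in the same order. The rRNAs took 2.17%, 5.49% and 7.22%, and the tRNAs 0.0505%, 0.0116% and 0.0142%. The total thus differed less between the libraries than its parts. Among mitochondrial fragments alone, mRNAs held 83.1% in vehicle and 37.9% and 39.2% in the JG231 libraries, while rRNAs held 16.6%, 62.0% and 60.7%. Per length, the summed rRNA level was 0.138 of the summed mRNA level in DMSO, 1.11 at 2.5 µM and 1.06 at 5 µM, which is 8.03-fold and 7.67-fold higher.

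**Figure D1:**
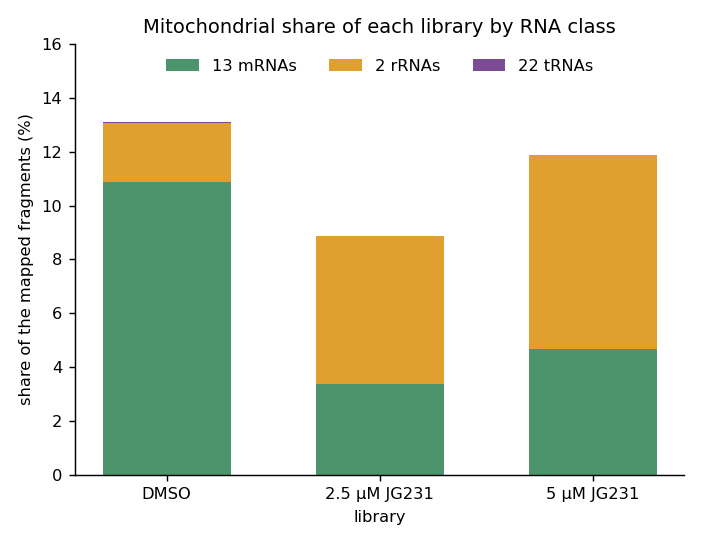
Share of the mapped fragments of each library (%, axis from 0) taken by the 13 mitochondrial mRNAs, 2 rRNAs and 22 tRNAs, stacked, with 1 library per bar. The mRNA block is 10.9% in DMSO and 3.36% and 4.65% with JG231, and the rRNA block is 2.17%, 5.49% and 7.22%.

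The members stood at the head of the expression ranking. In DMSO they filled the top 17 ranks without a gap, and in each JG231 library the top 12. MT-CO1 had rank 1 in DMSO and rank 3 in both treated libraries. MT-RNR2 moved from rank 4 to rank 1 at both doses, and MT-RNR1 from rank 14 to rank 2.

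MT-RNR1 is the small-subunit rRNA of the mitochondrial ribosome (chrM:648-1601) and MT-RNR2 the large-subunit rRNA (chrM:1671-3229). MT-RNR1 stood at 2725 FPKM in DMSO, 10793 at 2.5 µM and 15417 at 5 µM, 3.96-fold and 5.66-fold higher. MT-RNR2 stood at 12260, 28642 and 36860 FPKM, 2.34-fold and 3.01-fold higher. Both were highest at 5 µM, and MT-RNR1 differed more from vehicle than MT-RNR2, so that the ratio of the first to the second was 0.222 in DMSO, 0.377 at 2.5 µM and 0.418 at 5 µM. Against MT-ND1, the next mRNA downstream across MT-TL1, MT-RNR2 was 2.45-fold as high in DMSO, 14.2-fold at 2.5 µM and 14.1-fold at 5 µM. Among 17 listed RNAs that carry no poly(A) tail, found as 18 rows, 15 rows were at 0 in all 3 libraries. RN7SL2, an RNA of the signal recognition particle, stood at 88.9, 84.4 and 137 FPKM, the spliceosomal RNU4-1 at 3.09, 0 and 0, and the nucleolar SNORD3A at 0, 0.632 and 0.595. A row of the cytosolic 5.8S rRNA, RNA5-8SN2, picked out after its values were seen, had 0, 183 and 94 fragments. Unequal capture of RNAs without long tails between the 3 libraries was not tested as a part of the rRNA difference.

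**Figure D2:**
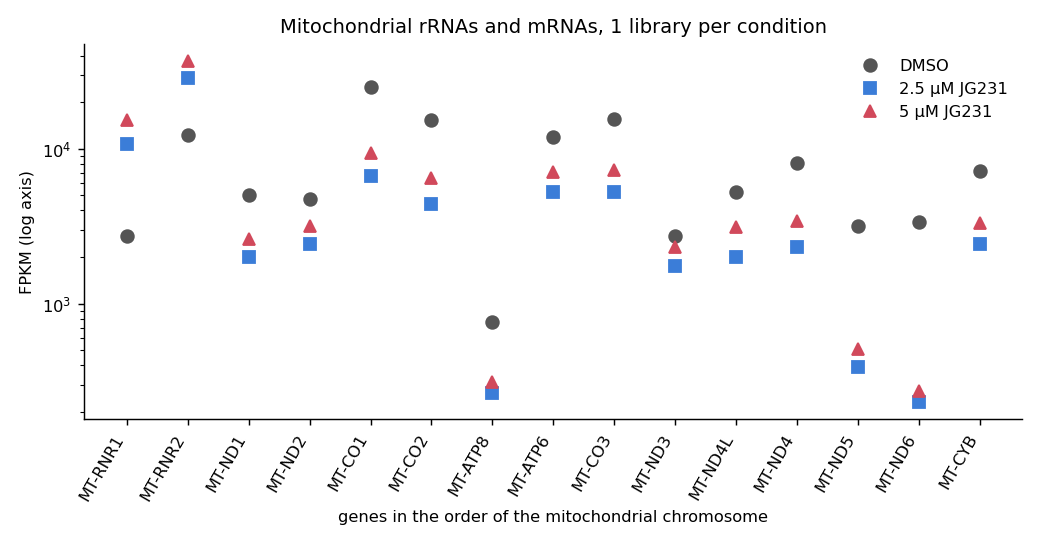
FPKM (log axis) of the 2 rRNAs and 13 mRNAs in gene order, with 1 point for each library (DMSO, 2.5 µM and 5 µM JG231). Both rRNAs are lowest in DMSO and every mRNA is highest in DMSO, with the widest gap at MT-ND6 (3390 FPKM against 230.6 and 274).

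The 3 mRNAs of cytochrome c oxidase, complex IV, were among the 4 most abundant mRNAs in every library. MT-CO1, its catalytic subunit (chrM:5904-7445), stood at 25116 FPKM in DMSO, 6690 at 2.5 µM and 9338 at 5 µM, log2 changes of −1.91 and −1.43. MT-CO2, which takes electrons from cytochrome c, stood at 15245, 4431 and 6437 FPKM (−1.78 and −1.24). MT-CO3 stood at 15624, 5280 and 7310 FPKM (−1.57 and −1.10). Summed, the 3 were 3.41-fold lower at 2.5 µM and 2.43-fold lower at 5 µM.

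MT-CYB, the cytochrome b of complex III (chrM:14747-15887), stood at 7225, 2409 and 3324 FPKM, 3.00-fold and 2.17-fold lower. It lies farthest downstream of the rRNAs, and its log2 changes of −1.58 and −1.12 were close to the medians of the 12 heavy-strand mRNAs (−1.55 and −1.11).

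Both ATP synthase mRNAs were lower as well. MT-ATP6, part of the proton channel of complex V, stood at 11825, 5276 and 7104 FPKM (−1.16 and −0.74). MT-ATP8 stood at 765, 265 and 312 FPKM (−1.53 and −1.30). The pair comes from 1 bicistronic transcript with the overlap printed above, but the ratio of MT-ATP8 to MT-ATP6 was 0.0647 in DMSO, 0.0503 at 2.5 µM and 0.0439 at 5 µM. How fragments over the shared 46 bases were assigned is not given in the sources used here.

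The 7 mRNAs of complex I, the NADH dehydrogenase, spanned the whole range of mRNA changes. MT-ND1 (chrM:3307-4262) stood at 5002, 2010 and 2613 FPKM (−1.32 and −0.94), and MT-ND2 at 4736, 2417 and 3172 FPKM (−0.97 and −0.58). MT-ND3 stood at 2735, 1752 and 2309 FPKM and changed least of all mRNAs, with −0.64 at 2.5 µM and −0.24 at 5 µM, the only mRNA value inside the 0.25 threshold. The bicistronic neighbours MT-ND4L and MT-ND4 stood at 5282, 2014 and 3135 FPKM (−1.39 and −0.75) and at 8143, 2337 and 3415 FPKM (−1.80 and −1.25). MT-ND4L was 0.649 of MT-ND4 in DMSO, 0.862 at 2.5 µM and 0.918 at 5 µM, with 7 shared bases. The 5 complex I mRNAs named so far were 2.46-fold and 1.77-fold lower in sum.

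MT-ND5 and MT-ND6, which end against each other on opposite strands, were apart from all others. MT-ND5, the longest mRNA (chrM:12337-14148, 1812 bases), stood at 3188 FPKM in DMSO, 391 at 2.5 µM and 510 at 5 µM. It was 8.14-fold and 6.25-fold lower, and its log2 change minus the heavy-strand median was −1.48 and −1.54. MT-ND6, the sole light-strand mRNA (chrM:14149-14673), stood at 3390, 230.6 and 274 FPKM. Its log2 changes were −3.88 and −3.63, and minus the heavy-strand median they were −2.33 and −2.52. The counting intervals of its ratio to DMSO (95%, exact, counting error only) ran from 0.0652 to 0.0709 at 2.5 µM and from 0.0781 to 0.0838 at 5 µM. MT-ND6 ranked 11 in DMSO, 132 at 2.5 µM and 128 at 5 µM, and MT-ND5 ranked 12, 63 and 50. MT-ND6 and MT-ND5 were at near equal levels in DMSO (ratio 1.06), and the ratio was 0.589 and 0.538 with JG231. The libraries were stranded, but the sources used here do not say whether fragments were counted by strand. RNA of the opposite strand therefore cannot be told apart in the MT-ND6 row.

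MT-ND5 was also low against the heavy-strand mRNAs on either side of it. Its ratio to MT-ND4, upstream, was 0.391 in DMSO, 0.168 at 2.5 µM and 0.149 at 5 µM. Its ratio to MT-CYB, downstream, was 0.441, 0.162 and 0.153. The low values thus did not extend to the next heavy-strand mRNA, and position along the heavy strand ordered the 12 changes weakly (Spearman's rho −0.34 at 2.5 µM and −0.19 at 5 µM). Gene length ordered them more, with longer mRNAs lower (rho −0.64 and −0.50). The 11187 nuclear protein-coding genes measured showed a weaker relation to exon length of the same sign (rho −0.22 and −0.31). The 701 of them no longer than MT-ND5 had median changes of 0.45 and 0.61, against 0.03 and −0.01 for the 10486 longer ones. These points share a library pair, so the correlations are descriptions. Whether RNA length plays a part was not tested.

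**Figure D3:**
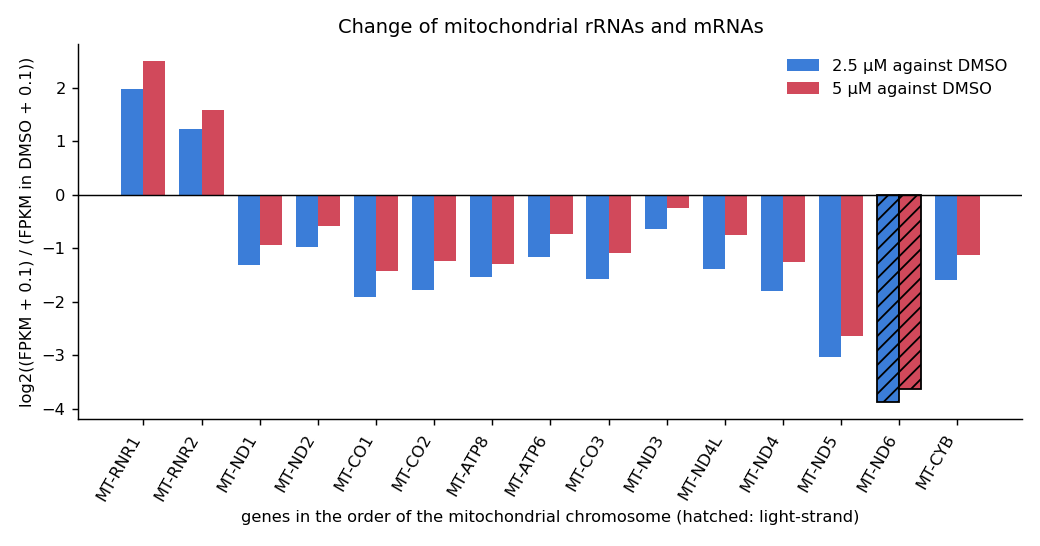
log2 change of each rRNA and mRNA against DMSO in gene order, with 1 bar for each dose. Hatched bars mark MT-ND6, the light-strand mRNA. The rRNA bars are above 0, all mRNA bars are below 0, and the bars of MT-ND5 and MT-ND6 are the deepest (−3.03 and −2.64, −3.88 and −3.63).

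MT-ND6 differs from the heavy-strand mRNAs in base composition too, since its template is the other strand. G made up 35.6% of its bases and C 7.05%, whereas the 12 heavy-strand mRNAs had 6.28% to 16.2% G and 29.5% to 36.0% C. By annotated length, 6 of the 13 mRNA genes end in an incomplete codon whose stop is finished by the tail (MT-ND1, MT-ND2, MT-CO3, MT-ND3, MT-ND4 and MT-CYB). Their median log2 changes were −1.44 and −1.02, against −1.78 and −1.30 for the 7 genes of whole codons by that length. The ranges of the groups overlapped at both doses. MT-ATP6 was placed among the 7 by its annotated length, although its last base is also the first of MT-CO3.

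Within the pool of mRNAs, MT-CO1 and MT-CO3 were the most abundant pair in each library. MT-CO1 supplied 23.2% of the summed mRNA FPKM in DMSO, 18.8% at 2.5 µM and 19.0% at 5 µM. MT-CO3 supplied 14.4%, 14.9% and 14.8%. MT-ND6 supplied 3.13%, 0.649% and 0.557%, from place 10 of 13 to the last place. The share of MT-ND3 was 2.53%, 4.93% and 4.69%. The spread of these shares between libraries of 1 condition is not known.

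Between the doses, every mRNA was higher at 5 µM than at 2.5 µM, by 0.23 (MT-ATP8) to 0.64 (MT-ND4L) on the log2 scale, with a median of 0.43. The rRNAs were higher by 0.36 (MT-RNR2) and 0.51 (MT-RNR1). The median nuclear protein-coding gene changed by −0.02 over the same step. With the libraries scaled to equal summed FPKM all 13 mRNAs were still higher at 5 µM, but the smallest step was 0.05.

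tRNAs are short, tightly folded and chemically modified, and libraries made for mRNA hold few of them. In total they held 8119 fragments in DMSO, 2370 at 2.5 µM and 3426 at 5 µM, and MT-TF held 0 in all 3. Fragments of mature tRNAs and of longer RNAs that span the tRNA genes cannot be told apart, so these rows are not levels of mature tRNA. The summed level of the tRNA rows was 7331, 1671 and 2053 FPKM, 4.39-fold and 3.57-fold lower. The 8 light-strand tRNAs carried most of it, with 6439, 1190 and 1630 FPKM, and the 14 heavy-strand tRNAs held 892, 481 and 423 FPKM. With MT-ND6 added, the 9 light-strand transcripts stood at 9829, 1421 and 1904 FPKM, 6.92-fold and 5.16-fold lower. As counting by strand is not documented, these rows may also hold RNA of the opposite strand.

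Most of the light-strand tRNA signal was in 3 genes. Their sequences are shown with those of MT-TY and MT-TE because these 5 light-strand tRNAs had at least 67 fragments in DMSO and were lower at both doses. Each is given in the sense of the tRNA gene (minus strand, hg38), as DNA letters, with the anticodon in capitals. MT-TP carries proline (chrM:15956-16023), MT-TE glutamate (chrM:14674-14742), MT-TY tyrosine (chrM:5826-5891), MT-TC cysteine (chrM:5761-5826) and MT-TN asparagine (chrM:5657-5729).
MT-TP: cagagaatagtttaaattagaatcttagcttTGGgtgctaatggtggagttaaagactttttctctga
MT-TE: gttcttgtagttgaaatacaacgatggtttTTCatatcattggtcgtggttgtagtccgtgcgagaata
MT-TY: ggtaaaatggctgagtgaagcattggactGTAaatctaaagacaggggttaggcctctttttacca
MT-TC: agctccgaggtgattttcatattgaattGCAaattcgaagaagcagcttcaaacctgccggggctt
MT-TN: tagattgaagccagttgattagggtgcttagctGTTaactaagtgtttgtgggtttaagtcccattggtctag

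MT-TC stood at 2558 FPKM in DMSO (2716 fragments), 396 at 2.5 µM and 463 at 5 µM, 6.47-fold and 5.52-fold lower. MT-TN stood at 1950, 223 and 476 FPKM, 8.74-fold and 4.10-fold lower. MT-TP stood at 1628, 514 and 642 FPKM, 3.17-fold and 2.54-fold lower. These 3 were 5.42-fold and 3.88-fold lower in sum. MT-TP, the first gene of the light-strand precursor, differed least of the 3. MT-TY, which overlaps MT-TC by 1 base, stood at 220, 30.5 and 39.7 FPKM. MT-TE, the gene next to MT-ND6, had 67 fragments in DMSO and 0 in each JG231 library. Its DMSO level was 28.3 and 33.4 times the level that 3 fragments would give in those libraries, and the counting intervals of its ratio to DMSO ended at 0.0447 at 2.5 µM and 0.0378 at 5 µM. MT-TE and MT-ND6 lie side by side on the light strand and the rows of both were far below DMSO. RNA of the opposite strand cannot be told apart in the MT-TE row either.

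Other light-strand tRNAs were near the limit of detection. MT-TQ had 0, 32 and 14 fragments, 8.42 and 3.12 times the level of 3 fragments in DMSO, and the counting intervals of its ratio to DMSO began at 6.46 and 2.22. It overlaps MT-TI of the other strand by 3 bases, and whether fragments were counted by strand is not given in the sources used here. MT-TS1 had 21, 0 and 2 fragments, and MT-TA 4, 7 and 0. No direction can be read for MT-TA at these counts.

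Heavy-strand tRNAs differed among themselves. MT-TL1, the leucine tRNA between MT-RNR2 and MT-ND1 printed above, was the most abundant of them at 366 FPKM in DMSO, 340 at 2.5 µM and 198 at 5 µM. Although its neighbour MT-RNR2 was higher with JG231, MT-TL1 was not, and its ratio to MT-RNR2 was 2.99%, 1.19% and 0.537%. MT-TV, between the rRNAs, had 38, 68 and 68 fragments, and the counting intervals of its ratio to DMSO included 1 at both doses (0.937 to 2.16 and 0.793 to 1.83).

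The tRNAs from MT-TG to MT-TT, in the later part of the heavy strand, were lower in both treated libraries. MT-TR had 146, 19 and 75 fragments, and MT-TH 107, 23 and 31. MT-TG had 86, 11 and 0 fragments, MT-TS2 42, 12 and 0, and MT-TL2 20, 4 and 0. MT-TT, beside MT-CYB, had 43, 0 and 0 fragments, and the counting intervals of its ratio to DMSO ended at 0.0707 and 0.0599. These 6 genes follow MT-CO3, where the heavy-strand mRNAs were lower by 0.24 to 3.03 on the log2 scale. The mRNAs before MT-CO3 were lower as well, by 0.58 (MT-ND2 at 5 µM) to 1.91 (MT-CO1 at 2.5 µM).

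The heavy-strand tRNAs before MT-CO3 gave no common direction. MT-TI had 25, 23 and 92 fragments, MT-TM 22, 18 and 35, MT-TD 30, 15 and 31, and MT-TK 5, 2 and 23. MT-TW had 0, 0 and 13 fragments, and the counting interval of its ratio to DMSO at 5 µM began at 2.04. The counting intervals of MT-TI and MT-TK at 2.5 µM, of MT-TM at both doses and of MT-TD at 5 µM included no change.

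**Figure D4:**
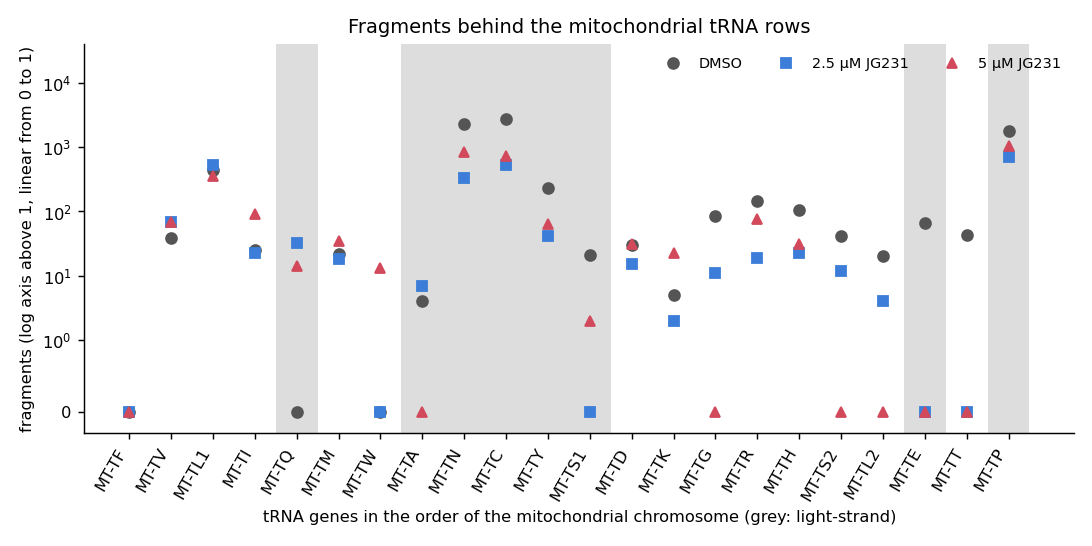
Fragments behind each of the 22 tRNA rows (log axis above 1, linear from 0 to 1) in gene order, with 1 point for each library and grey bands for light-strand genes. MT-TN, MT-TC and MT-TP hold most fragments and are highest in DMSO, and several later genes are at 0 with JG231.

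Over all members, 29 of the 35 that passed the filter at 2.5 µM were lower and 5 higher. Across the 15746 genes passing it, 43.4% were lower and 36.4% higher. At 5 µM, 27 of 36 were lower and 7 higher, against 45.1% and 36.5% of 15765 genes. Past a log2 change of 1, 25 members were lower and 3 higher at 2.5 µM, where 21.7% and 12.9% of genes were, and 21 lower and 6 higher at 5 µM, where 24.3% and 14.7% were. Members with 0 in a library pass only through the other one, and all were chosen with these values known, so the counts are read no further. The lower members were 13 and then 12 mRNAs with 16 and then 15 tRNAs, and the higher ones were both rRNAs with 3 tRNAs (MT-TV, MT-TQ and MT-TA) and then 5 (MT-TV, MT-TI, MT-TQ, MT-TW and MT-TK). Of these, MT-TV at both doses and MT-TA at 2.5 µM had counting intervals that included no change, and MT-TV at 5 µM (0.26) was within 0.25 under each other scaling of the libraries. At 2.5 µM MT-TV (0.21) and MT-TA (0.16) were also within it without mitochondrial and small RNA genes in the scaling, and MT-TL1 (−0.40) was then lower.

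The nuclear genome holds copies of mitochondrial DNA that fragments can match equally well. Of 408 such rows, 27 were above 0 in any library and 3 had a mean of at least 10 FPKM, all on chromosome 1. MTATP6P1 (chr1:633696-634376), whose sequence is 98.5% identical to MT-ATP6, stood at 374, 209 and 313 FPKM. MTND2P28 (chr1:629640-630683), 98.4% identical to MT-ND2, stood at 201, 79.8 and 97.7 FPKM. MTCO1P12 (chr1:631074-632616), 98.7% identical to MT-CO1, stood at 34.7, 11.7 and 13.6 FPKM. They amounted to at most 4.41% of the level of the mitochondrial gene in any library, and their signal cannot be told apart from misassigned mitochondrial fragments.

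Subunits of the same complexes that are encoded in the nucleus were mostly not lower at the deposited scaling. Only their counts at that scaling stand against 36.4% higher and 43.4% lower among all genes passing the filter at 2.5 µM, and 36.5% and 45.1% at 5 µM. The same holds for the regulators further on. Of 37 nuclear complex I genes, 25 were higher and 3 lower at 2.5 µM, and 27 higher and 0 lower at 5 µM, with medians of 0.48 and 0.62. When mitochondrial and small RNA genes were left out of the scaling, 17 were higher at each dose, with 5 and then 6 lower. The share of all genes was not counted at that scaling, which moved the median nuclear protein-coding gene to −0.24 and −0.35. As deposited, the medians over all 11187 nuclear protein-coding genes were 0.05 and 0.02. Over the 701 of them no longer than MT-ND5 they were 0.45 and 0.61, near those of the complex I genes. NDUFA12, an accessory subunit, stood at 17.3, 38.2 and 44.5 FPKM, NDUFS3, a core subunit, at 11.5, 23.7 and 27.7, and NDUFB9 at 50.4, 99.7 and 116. The 7 mitochondrial complex I genes had medians of −1.39 and −0.94.

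Of 9 nuclear complex III genes, 6 were higher and 1 lower at 2.5 µM, and 7 higher and 1 lower at 5 µM (medians 0.46 and 0.76). CYC1, the cytochrome c1 that partners MT-CYB, stood at 127, 245 and 304 FPKM, UQCRFS1, the Rieske iron-sulfur protein, at 26.2, 50.9 and 56.1, and UQCRC1 at 47.8, 78.6 and 96.1. Of 11 nuclear complex IV genes, 5 and then 8 were higher and 0 lower (medians 0.04 and 0.33). COX8A stood at 137, 301 and 339 FPKM, COX5A at 91.0, 110 and 154, and COX4I1 at 36.3, 51.4 and 60.9. Of 15 nuclear complex V genes, 5 and then 8 were higher and 2 lower (medians 0.16 and 0.31), with ATP5MC2 at 72.3, 116 and 144 FPKM, ATP5F1D at 34.1, 50.02 and 62.9, and ATP5MF at 21.4, 29.2 and 32.8. With the scaling that leaves out mitochondrial and small RNA genes, the nuclear complex III genes were 4 higher and 1 lower at 2.5 µM and 5 higher and 1 lower at 5 µM. Those of complex IV were 1 higher and 5 lower and then 4 higher and 2 lower, and those of complex V 2 higher and 6 lower at both doses. These counts have no share of all genes at the same scaling to stand against. For complexes I and III the nuclear medians were above 0 under every scaling of the libraries tried. For complexes IV and V they were below 0 at both doses (−0.25 and −0.046, −0.13 and −0.071) when mitochondrial and small RNA genes were left out of the scaling, and for complex IV also at 2.5 µM (−0.0045) with centring on the median nuclear gene. The mitochondrial medians of all 4 complexes were below the nuclear ones at both doses, an order that scaling does not change. The 100 nuclear protein-coding genes of highest mean FPKM had medians of 0.80 and 1.04.

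**Figure D5:**
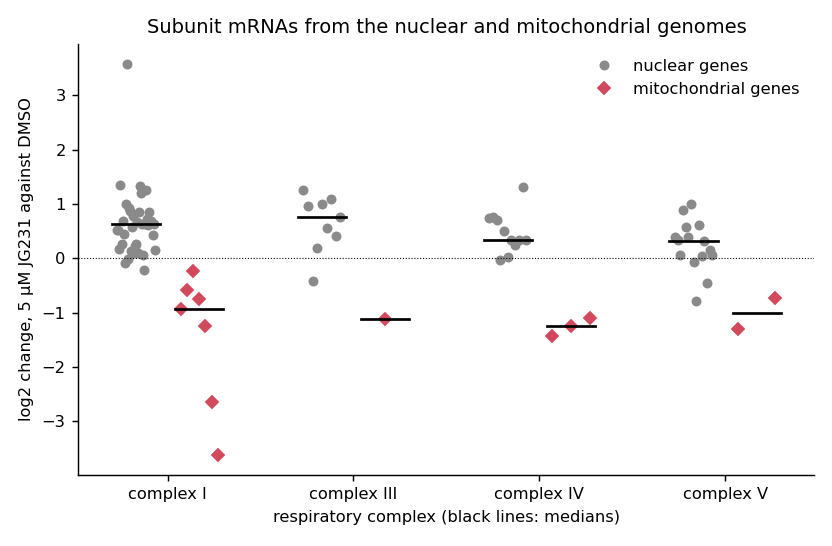
log2 change at 5 µM JG231 against DMSO of subunit mRNAs of complexes I, III, IV and V, with 1 point per gene, nuclear genes in grey, mitochondrial genes in red and medians as black lines. Mitochondrial medians lie between −1.24 and −0.94 and nuclear medians between 0.31 and 0.76, of which those of complexes IV and V turn negative under 1 other scaling.

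Genes that act on mitochondrial transcripts from the nucleus showed no shared direction at the deposited scaling. Of 9 genes of mitochondrial transcription, 5 were higher and 3 lower at 2.5 µM, and 3 each at 5 µM (medians 0.30 and 0.19). POLRMT, the mitochondrial RNA polymerase, stood at 20.7, 29.5 and 28.4 FPKM, the initiation factor TFB2M at 13.3, 16.4 and 19.8, and MTERF3 at 31.1, 41.1 and 35.9. Of 22 genes of mitochondrial RNA processing and turnover, 11 were higher and 4 lower at 2.5 µM, and 11 higher and 8 lower at 5 µM (medians 0.19 and 0.26). ELAC2, the nuclease that cuts the 3′ ends of tRNAs, stood at 3.51, 6.07 and 6.94 FPKM, TBRG4, an RNA-binding protein of the FASTK family, at 11.98, 20.3 and 24.2, and its relative FASTKD5 at 8.15, 11.4 and 14.8. Of 11 genes of mitochondrial DNA maintenance, 6 were higher and 3 lower, and then 5 higher and 3 lower (medians 0.25 and 0.14). DGUOK, a kinase that supplies deoxynucleotides, stood at 21.4, 52.2 and 57.1 FPKM, the topoisomerase TOP1MT at 3.88, 8.30 and 7.78, and RNASEH1 at 6.66, 4.63 and 3.79. Without mitochondrial and small RNA genes in the scaling, the transcription genes were 0 higher and 4 lower at both doses. The processing genes were 6 higher and 10 lower and then 7 higher and 9 lower, and the DNA maintenance genes 5 each and then 2 higher and 5 lower. That scaling lowers every gene alike, and the share of all genes was not counted under it, so these counts are read no further. Under that scaling the medians of the processing and DNA maintenance lists were below 0 at both doses, and that of the transcription list at 5 µM. The mitochondrial DNA itself was not measured.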

How the data were processed

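Total RNA was made into stranded mRNA libraries, and the authors deposited 1 gene table with an FPKM column for each of the 3 libraries. The submitters' processing notes name HISAT2, featureCounts and GRCh38/hg38, whereas the study's methods describe a TopHat and Cufflinks pipeline with HISAT alignment and StringTie, and the treatment of strand, of multiply mapped fragments and of overlapping genes is not given in the sources used here. FPKM depends on all other genes in a library, so a change in abundant RNAs shifts every value.

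Members were taken by symbol. The members and the gene lists were chosen with earlier results of these data known. Coordinates and lengths came from GENCODE release 44 (58207 of 58735 gene identifiers matched) and sequences from hg38. Fragments were recovered as FPKM times length divided by the value of 1 fragment (62.2, 49.1 and 41.6 FPKM bases). Of 4736, 3249 and 2018 low genes with a single transcript (under 50 fragments), 88.2%, 85.7% and 84.0% were whole within 0.05, and so, within 0.1, were all members with under 200 fragments (14, 13 and 11). Intervals are exact at 95%, floors are 3 fragments, and both cover counting error only.

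The pseudocount of 0.1 and the thresholds (FPKM over 1, log2 change over 0.25) were taken from the study's methods. Applying the first to either library of a pair was a choice made here, and the study's added retention of genes at 0 in a library was not applied. The scripts were tested on simulated data. All mRNAs and rRNAs are named, each tRNA over 1 FPKM, and from each nuclear list the 3 genes of largest change at 5 µM with the same sign at both doses and a mean of at least 5 FPKM. Nuclear copies are named at a mean of at least 10 FPKM. Alternatives were the pseudocount, scaling, threshold and filter. Python 3.11.15, pandas 2.3.3 and scipy 1.17.1 were used. Some cell type markers are not reported here.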

Additional observations from a re-analysis of the deposited data

How the results depend on the processing

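No paired analysis was possible because each condition has 1 library, and for the same reason no library could be left out. No direction reversed for the mitochondrial mRNAs, the rRNAs or the summed tRNAs. Of the single tRNAs, whose scalings were added after seeing the data, MT-TM at 5 µM was −0.042 with equal summed FPKM and −0.29 without mitochondrial and small RNA genes, from 0.09 as deposited, and MT-TV at 5 µM was −0.12 under the latter, where MT-TV and MT-TA at 2.5 µM were no longer higher by 0.25 and MT-TL1 became lower. Pseudocounts of 1 and 0.01 moved neither the mRNA median, the summed rRNAs, the summed tRNAs nor the MT-ND6 difference by more than 0.01, and the log2 values of single tRNAs with 0 in a library, which depend on it, are not printed. The scalings tried were equal summed FPKM, equal summed FPKM without mitochondrial and small RNA genes, and centring on the median nuclear protein-coding gene. In that order the mRNA median was −1.52, −1.86 and −1.61 at 2.5 µM and −1.25, −1.50 and −1.14 at 5 µM. The summed rRNAs changed by 1.45, 1.10 and 1.35 at 2.5 µM and by 1.67, 1.42 and 1.78 at 5 µM, from 1.40 and 1.80 as deposited. The summed tRNAs changed by −2.13 and −1.84 as deposited, by −1.97 at 5 µM with equal sums, and by −2.42 and −2.22 without mitochondrial and small RNA genes. That second scaling moved the median nuclear gene to −0.24 and −0.35. In scalings of the nuclear lists added after seeing the data, it reversed the medians of complex IV (−0.25 and −0.046), complex V (−0.13 and −0.071), RNA processing (−0.11 and −0.12) and DNA maintenance (−0.037 and −0.24) at both doses and of transcription at 5 µM (−0.19), and centring reversed complex IV at 2.5 µM (−0.0045). MT-ND3 at 5 µM passed 0.25 under all 3 scalings. The difference of MT-ND6 from the heavy-strand median does not depend on scaling. Leaving out the 5 mRNAs that overlap a neighbour, an alternative chosen after seeing the data, gave mRNA medians of −1.68 and −1.18. As a share of summed FPKM, the members held 39.8%, 24.1% and 28.8%, a measure that gives short genes more weight. With a threshold of 1, the higher members at 2.5 µM numbered 3. The number of libraries limits every comparison, and for tRNAs the fragments do as well.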
